A study of Homo sapiens with 4 samples.

Results

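Interferon-stimulated genes (ISGs) were examined in darolutamide-resistant prostate cancer cells after knockdown of the lncRNA LOC730101. The 39 ISGs were chosen by name as rows of the count table, and all 39 were found among its 60606 genes. The cells, LNCaP-DaroR, are LNCaP prostate cancer cells that were selected with rising concentrations of the antiandrogen darolutamide and then kept in it. The sources used here do not say whether the line is a pool or a clone. RNA was sequenced from 2 libraries transfected with control siRNA (siControl) and 2 libraries transfected with a pool of siRNAs against LOC730101 (siLOC730101). Both groups were therefore resistant, darolutamide-treated and transfected with double-stranded RNA, and no untransfected library was analysed here, so that the levels below are those of transfected cells.

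The libraries held 39213498 to 53368158 counts. LOC730101 (ENSG00000216775, chr6:52664366-52669155, GRCh38) had counts of 2560 and 2370 in siControl against 633 and 680 in siLOC730101, a log2 fold change of -1.56 with a standard error (SE) of 0.12 and an adjusted p of 4.34e-06 in edgeR. Luminal prostate markers were abundant, with 69616 to 98401 counts of KLK3, 38012 to 52806 counts of KLK2 and 15737 to 20774 counts of HOXB13 in a library. Of 8 markers of other cell types, PTPRC, CLEC4C and LILRA4 had 0 counts in all 4 libraries, and the 8 genes summed to between 13.9 and 18.0 CPM (counts scaled to library size with TMM factors), most of it from the collagen genes COL1A1 and COL3A1. The leukocyte gene PTPRC was thus at 0, while CD68, another leukocyte marker, had at most 1 count in a library. Both genes of plasmacytoid dendritic cells, a main source of interferon in blood, were at 0.

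Interferons are secreted proteins that warn cells of viral infection. They are made when a cell senses foreign nucleic acid through receptors such as TLR3 or MDA5 (encoded by IFIH1), which act through the transcription factors IRF3 and IRF7. Type I interferons bind IFNAR1 and IFNAR2, whose kinases JAK1 and TYK2 phosphorylate STAT2, which enters with IRF9 into the complex ISGF3. ISGF3 binds the interferon-stimulated response element (ISRE), a repeat of GAAA, before the start of the ISGs, whose products block entry, translation and release of viruses. LNCaP cells have been described as deficient in JAK1 and as weak responders to interferon.

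To show the element that most of these genes share, the 250 bases before each RefSeq start (GRCh38.p14) were searched on both strands for a short form of the ISRE, GAAA followed by any 2 bases and GAAA again. A match that overlaps another was counted on its own. Of the 32 members with an entry in the RefSeq promoter table, 20 (62.5%) held a match in at least 1 promoter, and 13 of them held 2 or more. Over all 27305 genes of that table the share was 3.71%. The sequences below are those of the members with a match that were among the highest of their role group or had an unadjusted p under 0.05. They are written along the strand of the gene, and the capitals mark the matches, GAAA on the strand of the gene and TTTC where the motif lies on the other strand.
ISG15, chr1:1013374-1013409, plus strand: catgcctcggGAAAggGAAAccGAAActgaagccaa
MX1, chr21:41431844-41431873, plus strand: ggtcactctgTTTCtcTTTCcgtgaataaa
IFI6, chr1:27672266-27672358, minus strand: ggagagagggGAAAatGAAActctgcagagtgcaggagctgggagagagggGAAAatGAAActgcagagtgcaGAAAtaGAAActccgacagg
ISG20, chr15:88638937-88638966, plus strand: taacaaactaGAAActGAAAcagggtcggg
IFIT5, chr10:89414513-89414567, plus strand: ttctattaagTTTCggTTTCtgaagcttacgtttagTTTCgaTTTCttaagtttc
OAS3, chr12:112938321-112938350, plus strand: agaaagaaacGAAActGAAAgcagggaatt
IFIH1, chr2:162318824-162318853, minus strand: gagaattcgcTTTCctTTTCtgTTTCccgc
PARP9, chr3:122564322-122564351, minus strand: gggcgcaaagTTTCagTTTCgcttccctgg

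In ISG15, 2 overlapping matches start 113 and 107 bases before the RefSeq start. IFI6 holds 3 matches, the first 156 bases before its RefSeq start. Of several RefSeq starts of a member, the one with the most matches was taken, and MX1 has a match at 1 of 3. The stretches of ISG15, MX1, ISG20, OAS3 and PARP9 lie inside the gene spans of the count annotation given below, which are wider. OAS3 and IFIH1 each hold 1 more match outside the stretch shown. These are matches of letters and not measured binding sites. The 16 tested members with a match had a median log2 fold change of -0.0074, and 8 of them were below 0. The 10 tested members with a RefSeq promoter and no match had a median of 0.13, and 3 of them were below 0. Of all genes tested, 50.4% were below 0, and the difference between these medians was not tested. IFIT2, OASL, MX2, USP18, IRF3 and IRF7 were tested but had no entry in the promoter table, so they are in neither group.

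**Figure D1:**
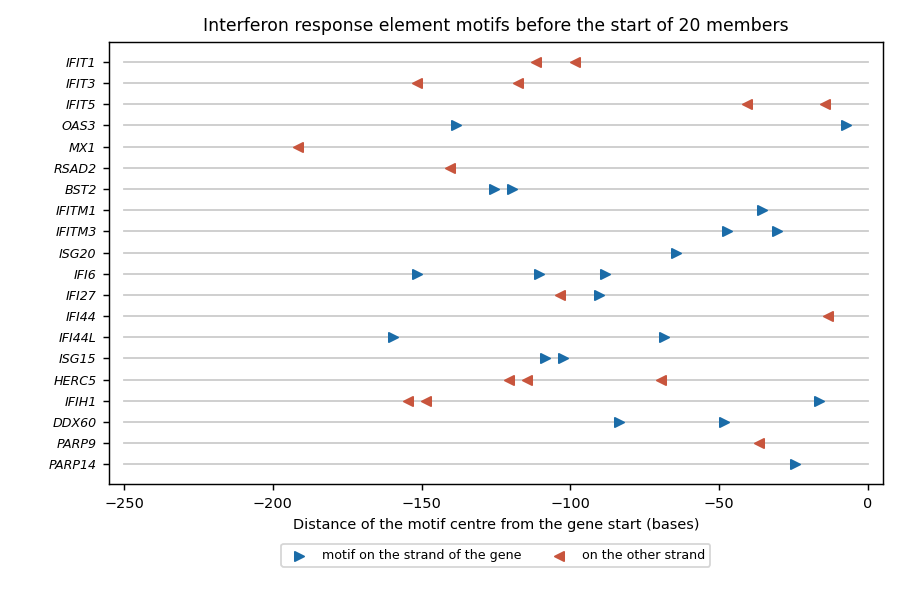
Positions of the short ISRE motif in the 250 bases before the RefSeq start of the 20 members that hold it, with the distance of the motif centre from that start in bases on the x axis and 1 line per gene. Right-pointing marks lie on the strand of the gene and left-pointing marks on the other strand. IFI6, HERC5 and IFIH1 hold 3 motifs each.

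Most tested ISGs had low levels per kilobase of exon in these cells. Per kilobase of exon, the 32 members that passed the expression filter had a median level of 0.946 CPM, against 2.54 CPM for all 19349 genes that passed it, and 12 of the 32 lay above that value. ISG15 was the highest member with a mean level of 22.7 CPM per kilobase over the 4 libraries. IRF3 followed with a level of 13.5, IFI6 with 11.1, DTX3L with 8.41 and EIF2AK2 with 8.02 CPM per kilobase. The level of MX1, one of the ISGs most used as a sign of interferon response, was 0.591 CPM per kilobase, and those of IFIT1 and IFI44 were 0.402 and 0.324 CPM per kilobase. The exon length takes in every annotated exon, 17984 bases for MX1 against 2776 in its canonical transcript. For ISG15 it was 867 bases against 637. Levels per kilobase thus depend on the annotation, and the siControl means were 12.4 CPM for MX1 and 14.7 CPM for ISG15. The 39 members together summed to 475.4 and 474.4 CPM in siControl and to 473.9 and 495.2 CPM in siLOC730101. In such bulk RNA, fewer cells that express a gene and less RNA per cell cannot be told apart.

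**Figure D2:**
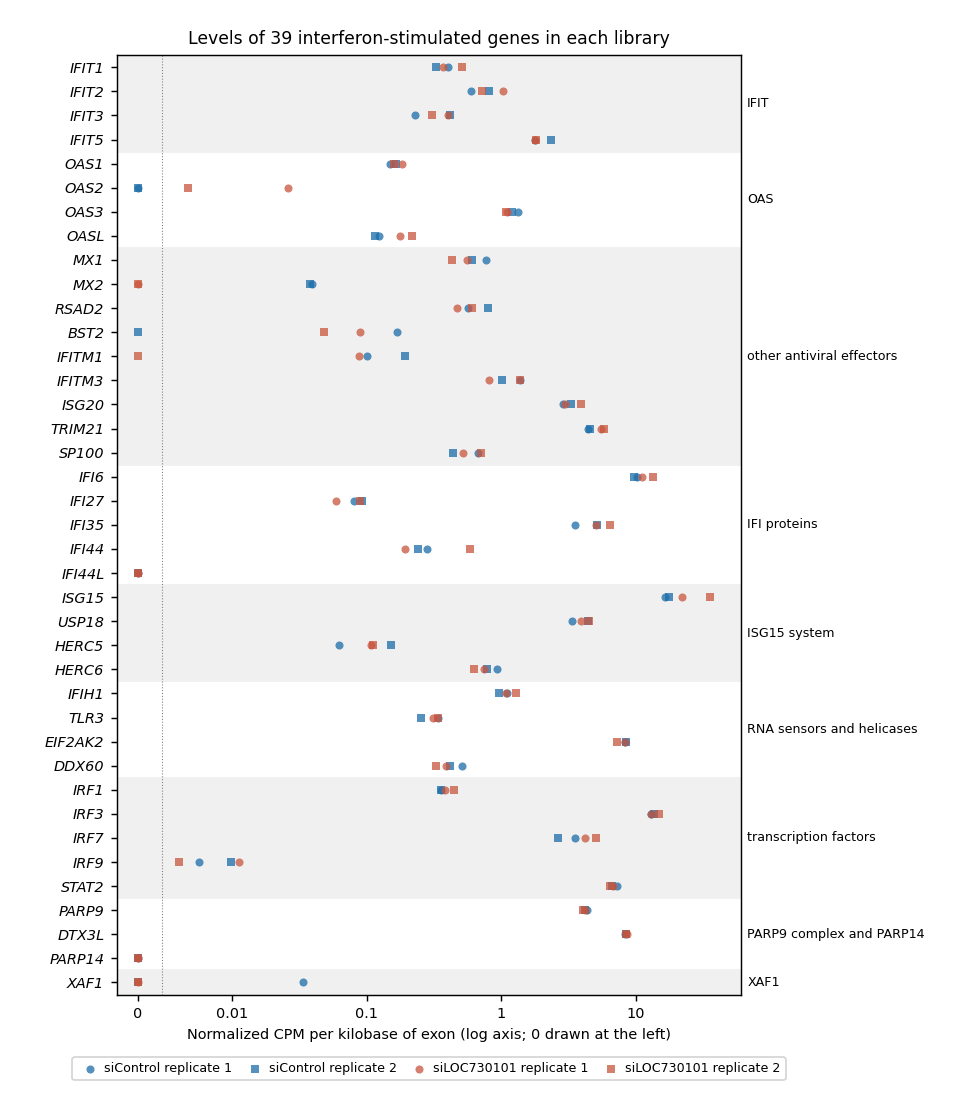
Normalized CPM per kilobase of exon (log axis) of each of the 39 members in the 4 libraries, with members grouped by role, circles for replicate 1 and squares for replicate 2. Values of 0 are drawn at the left edge, and ISG15 is the highest member and PARP14 and IFI44L are at 0 in every library.

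The filter removed 7 members, OAS2, BST2, IFITM1, IFI44L, IRF9, PARP14 and XAF1. PARP14 and IFI44L had 0 counts in all 4 libraries, which allows up to 3 counts in each, or 0.0555 to 0.0790 CPM (counting error only). Most counts of weak genes were even, as when both mates of a read pair are counted, and 0 would then allow up to 6 counts, or 0.111 to 0.158 CPM. BST2, the tether of budding virions, had counts of 10 and 0 in siControl against 4 and 2 in siLOC730101. IFITM1, which blocks viral fusion, had counts of 9 and 15 in siControl against 6 and 0 in siLOC730101. OAS2 had 0 counts in both siControl libraries and 12 and 2 counts in siLOC730101. All of these are too few counts to compare the groups.

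IRF9 (chr14:24161234-24168043), the DNA-binding partner of STAT2 in ISGF3, had counts of 2 and 3 in siControl against 3 and 1 in siLOC730101. Its canonical transcript of 1626 bases shares 93.1% of its bases with exons of other genes in gencode version 44 on GRCh37, mostly with ENSG00000259529, which lies on the same strand. In the count table itself that gene covers 1544 bases of IRF9 exons and had between 0 and 2 counts in a library. The counting tool leaves out reads that fall on more than 1 gene unless told otherwise, and the command in the file header gives no such option. The low count of IRF9 can therefore not be read as low expression, and how many of its reads were left out was not tested. XAF1 (chr17:6755447-6775647), an antagonist of the apoptosis inhibitor XIAP, shares 74.2% of its canonical transcript with PRAL on the opposite strand. It had 12 and 0 counts in siControl and 0 counts in both siLOC730101 libraries. IFITM1 shares 52.5% of its canonical transcript with ENSG00000288681. PARP14, IFI44L, OAS2 and BST2 share none of theirs.

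To ask whether knockdown of LOC730101 changed the ISGs, siLOC730101 was compared with siControl by edgeR's quasi-likelihood test over all genes that passed the filter. None of the 32 tested members had an adjusted p under 0.05 in this test, where 55 of the 19349 genes did (0.284%, made up of 0.212% higher and 0.0724% lower). DESeq2 called 1 member, ISG15, where it called 1.66% of the genes. It gave no adjusted p for IFIT1, IFIT2, IFIT3, OAS1, OASL, MX2, RSAD2 and IFITM3. The same held for IFI27, IFI44, HERC5, HERC6, IFIH1, TLR3, DDX60 and IRF1. Members without an adjusted p could not be called in DESeq2. At an unadjusted p under 0.05, 4 members passed in edgeR (12.5% of the members tested, against 10.8% of all genes tested). ISG15 and IRF7 were those with higher values after siLOC730101 (6.25%, against 6.43% of all genes) and MX1 and MX2 those with lower values (6.25%, against 4.39%). MX2 could enter the test only through its siControl counts, and without it 3.23% of the members were lower at this p, 9.68% passed in either direction and 35.5% had groups that did not overlap. The libraries of the groups did not overlap in CPM for 12 of the 32 members (37.5%), against 41.7% of all genes tested. These shares of the members lay near those of all genes.

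The log2 fold change was above 0 for 20 members and below 0 for 12 members (37.5%, against 50.4% of all genes tested), with a median of 0.12, where the median of all genes was -0.0021. The median was 0.12 as well with MX2 set to its bound. It fell to -0.015, with 17 members below 0, without siLOC730101 replicate 2, and to 0.037 without siControl replicate 1. For 27 of the 32 members the log2 fold change lay within 0.5 of 0. The standard error of a member had a median of 0.21, compared with 0.17 for all genes tested. The smallest two-sided p that exact permutation of 2 against 2 libraries allows for 1 gene is 0.333.

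**Figure D3:**
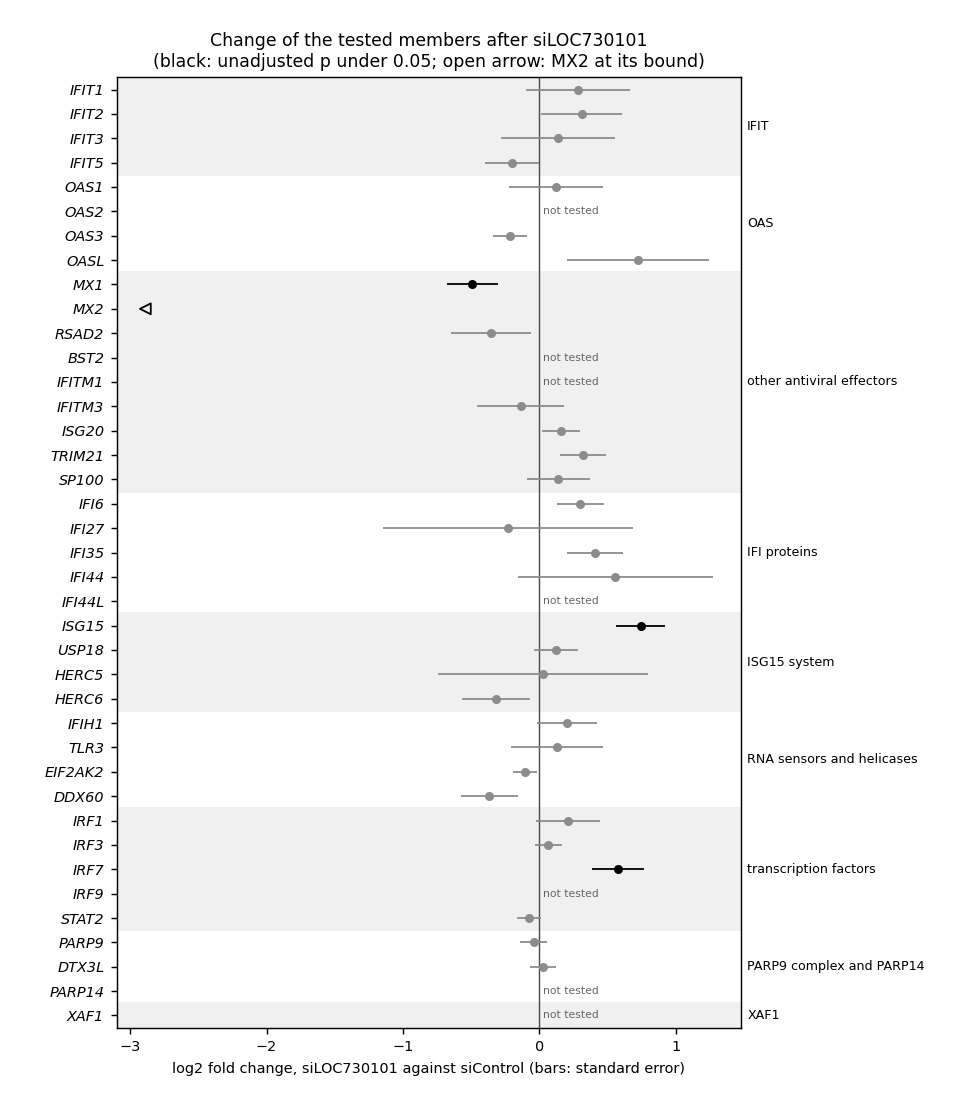
Log2 fold change of each tested member, siLOC730101 against siControl, with its standard error as a bar and members grouped by role. ISG15 and IRF7 lie to the right and MX1 to the left in black for an unadjusted p under 0.05; MX2 is drawn as an open arrow at its bound of -2.89, and 7 members were not tested.

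ISG15, a ubiquitin-like protein that is attached to other proteins during the interferon response, came nearest to the threshold among the higher members. It lies on chromosome 1 from 1001138 to 1014540 (GRCh38, plus strand). It had counts of 766 and 714 in siControl against 777 and 1153 in siLOC730101, which are 14.2 and 15.3 CPM against 18.9 and 30.4 CPM after scaling. The groups did not overlap, and siLOC730101 replicate 2 stood well above the other 3 libraries. The mean was 14.7 ± 0.767 CPM (SD, n = 2) in siControl and 24.6 ± 8.10 CPM (SD, n = 2) in siLOC730101, a log2 fold change of 0.74 (SE 0.18, edgeR adjusted p = 0.104). The adjusted p was under 0.05 in 8 of 14 alternative settings and ranged from 1.32e-08 to 0.656. Among these settings were DESeq2 and the filters at 1 count over all libraries (1.37% of all genes called) and at a mean count over 50 (1.32%), and the run with halved counts (0.873%). ISG15 passed too without siControl replicate 1 (0.804% of all genes called) and without siControl replicate 2 (0.671%). The log2 fold change was 0.36 without siLOC730101 replicate 2 (edgeR adjusted p = 0.656) and 1.06 without siLOC730101 replicate 1 (edgeR adjusted p = 1.32e-08), where 0.632% and 5.56% of all genes were called, so that its size rested on these libraries. Of its exon bases, 4.2% are shared with another gene.

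IRF7, the interferon-induced factor that amplifies the response, lies on chromosome 11 from 612553 to 615983 (minus strand). It had counts of 499 and 322 in siControl against 448 and 502 in siLOC730101, which are 9.23 and 6.88 CPM against 10.9 and 13.2 CPM. Both siLOC730101 libraries lay above both siControl libraries. The log2 fold change was 0.58 (SE 0.19, edgeR adjusted p = 0.235). Its adjusted p was under 0.05 in 3 of the 14 alternative settings, 1 of them with replicate number as a block. That fit called 3.37% of all genes, and the other settings each left out 1 library. The log2 fold change was 0.81 without siControl replicate 1 and 0.72 without siLOC730101 replicate 1. Its lowest value over the 14 settings was 0.388.

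MX1, a dynamin-like GTPase that traps viral nucleocapsids, lies on chromosome 21 from 41420020 to 41470071 (plus strand). It had counts of 752 and 513 in siControl against 410 and 292 in siLOC730101, which are 13.9 and 11.0 CPM against 9.98 and 7.69 CPM. Here the siLOC730101 libraries lay below the siControl libraries, the other way from ISG15. The log2 fold change was -0.49 (SE 0.19, edgeR adjusted p = 0.317). Over the 14 alternative settings it ranged from -0.69 without siLOC730101 replicate 1 to -0.31 without siControl replicate 1. MX1 shares 562 exon bases with TMPRSS2, an abundant gene on the opposite strand.

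MX2, a related GTPase that acts near the nuclear pore, lies on chromosome 21 from 41361999 to 41409393 (plus strand), beside MX1. It had 31 and 26 counts in siControl and 0 counts in both siLOC730101 libraries. Its level in siControl was 0.573 and 0.555 CPM. The mean of these was 7.43-fold over the limit in siLOC730101, with the 0 counts there taken as up to 3 per library. This bound allows for no counting error in siControl. If both mates of a pair were counted, 0 allows up to 6 counts per library and the bound is 3.71-fold. The adjusted p was 0.0947 in edgeR, and DESeq2 gave no adjusted p for this gene. MX2 passed the expression filter only through the siControl libraries, so that its direction was set by the filter and its p is no support for a difference. Its level per kilobase was low also in siControl, at 0.0388 CPM. Its 57 counts over the siControl libraries were the whole signal of this gene.

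**Figure D4:**
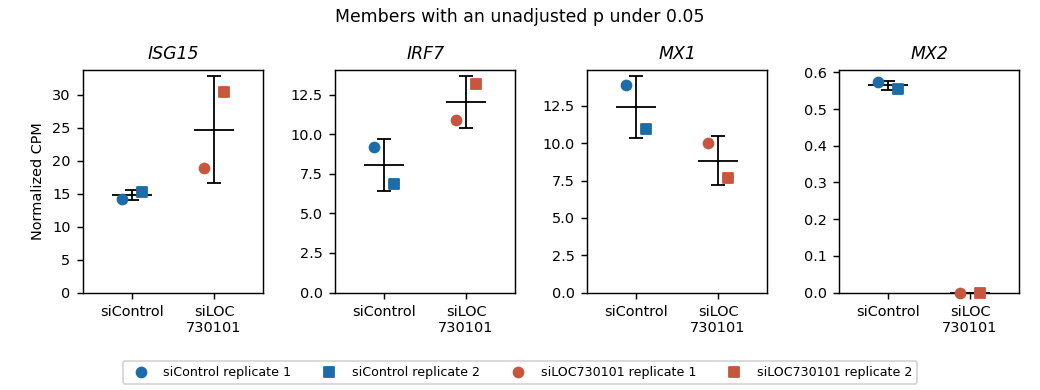
Normalized CPM of ISG15, IRF7, MX1 and MX2 in each library (circles, replicate 1; squares, replicate 2), with the mean of each group as a line and the SD as a bar. ISG15 and IRF7 are higher in both siLOC730101 libraries and MX1 and MX2 lower; siLOC730101 replicate 2 of ISG15 lies at 30.4 CPM.

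Among the transcription factors, IRF3 and STAT2 were abundant and differed little between the groups. IRF3 (chr19:49659569-49665875), the factor that is present before infection and activated by sensing, had 49.1 and 51.2 CPM in siControl and 48.7 and 56.3 CPM in siLOC730101 (log2 fold change 0.067, edgeR adjusted p = 0.882). STAT2 (chr12:56341597-56360203) had 67.2 and 61.7 CPM in siControl and 62.7 and 59.7 CPM in siLOC730101 (log2 fold change -0.075, edgeR adjusted p = 0.842). The libraries of both genes overlapped between the groups. IRF1 (chr5:132440440-132508719), an activator that also answers to interferon gamma, had 4.37 and 4.36 CPM in siControl and 4.65 and 5.45 CPM in siLOC730101. Its groups did not overlap, but the log2 fold change of 0.21 was smaller than its standard error of 0.24. IRF1 shares 22.9% of its exon bases with IRF1-AS1 and IRF3 shares 19.3% with BCL2L12, both on the opposite strand, so that reads there were not given to either gene.

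The 4 members grouped as RNA sensors and helicases were tested and none passed at an unadjusted p under 0.05. EIF2AK2 (PKR, chr2:37099210-37157522), a kinase that halts translation when it binds double-stranded RNA, had the highest CPM of all members. It had 91.1 and 92.3 CPM in siControl and 90.6 and 79.9 CPM in siLOC730101, with a log2 fold change of -0.10 (SE 0.088, edgeR adjusted p = 0.737). One siLOC730101 library lay just below the siControl libraries and the other further below. IFIH1 (chr2:162267074-162318684) had 5.73 and 4.98 CPM in siControl and 5.67 and 6.69 CPM in siLOC730101 (log2 fold change 0.20, SE 0.22). TLR3, the endosomal receptor, had between 88 and 138 counts in a library and a log2 fold change of 0.13 (SE 0.34). DDX60, a helicase linked to sensing, had 8.86 and 7.14 CPM in siControl and 6.72 and 5.69 CPM in siLOC730101, lower in both (log2 fold change -0.37, edgeR adjusted p = 0.563).

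The IFIT proteins bind viral RNA and block its translation, and their 4 genes lie together on chromosome 10. IFIT5 (chr10:89414568-89421605) was the highest per kilobase, with 7.73 and 10.2 CPM in siControl and 7.76 and 7.85 CPM in siLOC730101 (log2 fold change -0.20, SE 0.20). IFIT2 (chr10:89283694-89309271) had 2.59 and 3.50 CPM in siControl and 4.43 and 3.11 CPM in siLOC730101 (log2 fold change 0.31, SE 0.30). The groups overlapped for all 4 genes. IFIT1 and IFIT3, which are among the ISGs that rise most in responsive cells, had 59 to 100 counts in a library and log2 fold changes of 0.28 and 0.14, within 1 standard error of 0.

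The OAS proteins make oligoadenylates when they bind double-stranded RNA, and OAS1, OAS2 and OAS3 lie side by side on chromosome 12. OAS3 (chr12:112938051-112976460) was the main one here, with 24.0 and 21.7 CPM in siControl and 19.9 and 19.6 CPM in siLOC730101. Its siLOC730101 libraries lay just below its siControl libraries (log2 fold change -0.21, SE 0.12, edgeR adjusted p = 0.575). OAS1 (chr12:112905856-112933219) had 1.94 and 2.16 CPM in siControl and 2.39 and 2.08 CPM in siLOC730101, and the groups overlapped. OASL, whose protein lacks the oligoadenylate activity, had counts of 42 and 34 in siControl against 46 and 52 in siLOC730101, a log2 fold change of 0.72 (SE 0.52, edgeR adjusted p = 0.678).

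Of the other antiviral effectors, TRIM21 and ISG20 were the highest per kilobase. TRIM21 (chr11:4384897-4393702), a cytosolic antibody receptor and ubiquitin ligase, had 8.49 and 8.82 CPM in siControl and 10.6 and 11.1 CPM in siLOC730101. The groups did not overlap and the replicates were close (log2 fold change 0.32, SE 0.17, edgeR adjusted p = 0.531). ISG20 (chr15:88635670-88656483), an exonuclease, had 20.4 and 23.6 CPM in siControl and 21.4 and 27.8 CPM in siLOC730101, which overlapped (log2 fold change 0.16, SE 0.14). RSAD2 (viperin), SP100 of the nuclear bodies and IFITM3 overlapped between the groups as well, with log2 fold changes of -0.36, 0.14 and -0.14. The near-identical IFITM genes may share reads, so that the values of IFITM1 and IFITM3 are uncertain.

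IFI6 and IFI35 were the main genes of the IFI group. IFI6 (chr1:27666064-27672212), a small membrane protein, had 9.47 and 9.08 CPM in siControl and 10.4 and 12.5 CPM in siLOC730101 (log2 fold change 0.30, SE 0.17, edgeR adjusted p = 0.565). IFI6 shares 23.1% of its exon bases with LINC02574 on the same strand, so that reads there were not given to either gene. IFI35 (chr17:43006740-43014456) had 6.92 and 10.0 CPM in siControl and 9.91 and 12.5 CPM in siLOC730101 (log2 fold change 0.41, SE 0.20, edgeR adjusted p = 0.500). The groups did not overlap for IFI6 and overlapped for IFI35. IFI27 had 10 to 18 counts in a library and IFI44 had 16 to 45 counts, with standard errors of 0.92 and 0.71, too wide to compare the groups.

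In the ISG15 system, none of the genes other than ISG15 passed at an unadjusted p under 0.05. USP18 (chr22:18150118-18177397), which removes ISG15 from proteins and dampens signalling at IFNAR2, had 13.6 and 18.0 CPM in siControl and 15.9 and 18.4 CPM in siLOC730101 (log2 fold change 0.12, SE 0.16, edgeR adjusted p = 0.856). The ligase HERC5 had counts of 16 and 34 in siControl against 21 and 20 in siLOC730101. HERC6, its paralog, had 5.38 and 4.49 CPM in siControl and 4.28 and 3.63 CPM in siLOC730101 (log2 fold change -0.32, SE 0.25). Values of USP18 and HERC5 overlapped between the groups, and those of HERC6 did not.

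PARP9 and DTX3L, which form a complex with ADP-ribosyl and ubiquitin transfer activity, differed little between the groups. They lie head to head on chromosome 3 and share 139 exon bases. DTX3L (chr3:122564338-122575203) had 47.4 and 48.8 CPM in siControl and 49.5 and 48.4 CPM in siLOC730101 (log2 fold change 0.026, SE 0.094). PARP9 (chr3:122527924-122564577) had 38.4 and 37.0 CPM in siControl and 37.4 and 35.8 CPM in siLOC730101 (log2 fold change -0.042, SE 0.10). PARP14, a further ISG of this family on the same chromosome, was at 0 in all 4 libraries.

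The rest of the pathway was followed with 107 genes in 6 lists, of which 79 were tested. None of the 79 had an adjusted p under 0.05 in edgeR, and 4 had an unadjusted p under 0.05 (5.06%, against 10.8% of all genes tested). DESeq2 called none of them either, but gave no adjusted p for some, among them IFNAR2, IL10RB and PSMB10. Among 11 interferon genes none was tested, and 8 had 0 counts in every library, IFNB1 and IFNG among them. The others were IFNK with 9 counts and IFNL1 with 2 counts, both in siLOC730101 replicate 2, and IFNL3 with 4 counts in siLOC730101 replicate 1. The counts of these 11 genes were thus at or near 0 in both groups, but IFNA1 shares 63.4% of its exon bases with MIR31HG, and its 0 is uncertain.

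Of the 11 receptors and kinases, 10 were tested, and 8 of these had a log2 fold change below 0 (80.0%, against 50.4% of all genes tested), with a median of -0.11. Without siControl replicate 1 this was 5 of 10 with a median of -0.0088. IFNAR1 had a level of 10.5 CPM per kilobase, IFNGR1 of 14.3 and IFNGR2 of 7.88, while IFNAR2 had 0.192 and IL10RB 0.103 CPM per kilobase, and IFNLR1, the specific chain for lambda interferons, had 0 counts. IFNAR2 and IL10RB share 27.7% and 21.6% of their exon bases with other genes, among them ENSG00000249624 on the same strand, so that their levels are uncertain. JAK1 had counts of 681 and 403 in siControl against 426 and 277 in siLOC730101, a level of 0.738 CPM per kilobase, which was below the levels of TYK2 (9.33) and JAK2 (4.13). Its log2 fold change was -0.26 (SE 0.22, edgeR adjusted p = 0.729), and 0.039 without siControl replicate 1. STAT3, the highest gene of this list, had a level of 21.5 CPM per kilobase and a log2 fold change of -0.13. Those of the receptors lay between -0.32 for IFNAR2 and 0.14 for IFNGR2, and that of JAK2 was -0.31 (SE 0.13, edgeR adjusted p = 0.404) with overlapping groups. With siLOC730101 replicate 1 left out, the log2 fold change of JAK2 was -0.45.

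Among 20 genes of nucleic acid sensing, 14 were tested, with a median log2 fold change of -0.047. ADAR, which edits double-stranded RNA and so limits its sensing, was the highest with 31.0 CPM per kilobase (log2 fold change -0.059). MAVS, the adaptor of the RNA helicases, had 19.7 CPM per kilobase, while DDX58 (RIG-I) had 20 to 42 counts in a library, CGAS had 6 to 26 counts and STING1 had 4 to 34 counts. DDX58 shares 43.2% of its exon bases with ENSG00000288684, so its count is uncertain in the same way as that of IRF9. TICAM1, the adaptor of TLR3, had the lowest p of this list, with a log2 fold change of 0.29 (SE 0.12, edgeR adjusted p = 0.353). The 9 tested negative regulators had a median of -0.018, with IRF2BP2 the highest per kilobase (29.0 CPM, log2 fold change 0.010).

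Of 40 further interferon-induced genes, 31 were tested, with a median log2 fold change of 0.030 and the lowest adjusted p at 0.475 in edgeR. LAP3, an aminopeptidase, was the highest with 36.4 CPM per kilobase (log2 fold change 0.10). The chemokine genes CXCL10 and CXCL11, which rise strongly with interferon in many cells, had 6 to 16 and 0 to 10 counts in a library. Of 15 antigen presentation genes, all were tested. A log2 fold change above 0 was found for 13 of them and below 0 for 2 (13.3%, against 50.4% of all genes tested). Among the 13 were HLA-B and HLA-C, each of which was near 0 counts in 1 siControl library. PSMB10, a subunit of the immunoproteasome, had counts of 245 and 133 in siControl against 72 and 96 in siLOC730101, with a log2 fold change of -0.79 (SE 0.33, edgeR adjusted p = 0.397). PSMB10 shares 39.4% of its exon bases with ENSG00000261884 on the same strand, so that its counts are uncertain. B2M, the light chain of class I molecules, had 230.4 and 210.0 CPM in siControl and 248.8 and 268.7 CPM in siLOC730101, with the groups apart (log2 fold change 0.23, SE 0.079, edgeR adjusted p = 0.252). With siLOC730101 replicate 1 left out, the log2 fold change of B2M was 0.30.

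**Figure D5:**
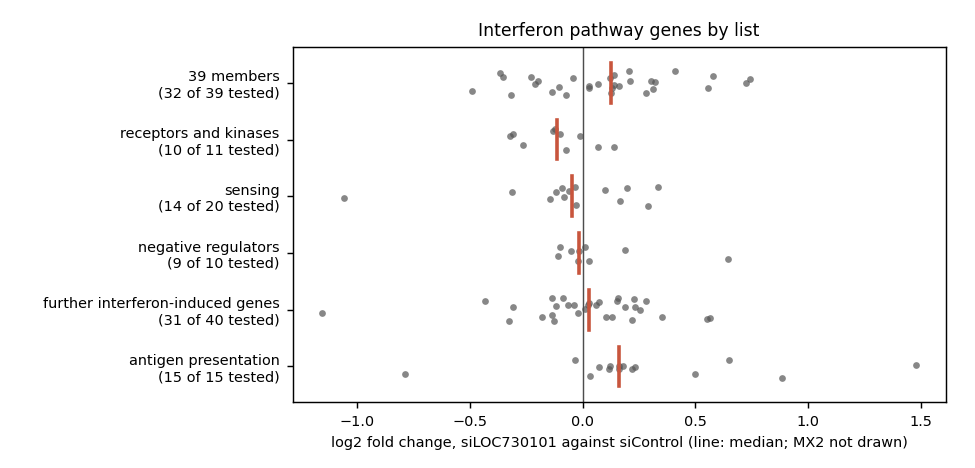
Log2 fold changes, siLOC730101 against siControl, of the tested genes of the 39 members and of 5 lists of interferon pathway genes, 1 point per gene with the median as a line; MX2 is left out as a point because both siLOC730101 libraries had 0 counts. Medians lie between -0.11 for receptors and kinases and 0.16 for antigen presentation, on either side of the -0.0021 of all genes.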

How the data were processed

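RNA-seq of 4 LNCaP-DaroR libraries was analysed from the deposited gene counts. The authors made these raw counts with featureCounts 2.0.1 on gene names of gencode 41 (hg38), per the file header. The command sets neither paired-end counting nor strand, and it does not keep reads that fall on more than 1 gene. Overlapping genes thus lose reads, and antisense reads cannot be told apart. Even values made up 66.0 to 70.1% of the counts between 1 and 20, by library. The paper's methods give another genome version and aligner than the header and the labels, so the aligner is not stated here. The table holds 60606 genes.

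Groups were taken from the labels, which do not say whether replicates were separate cultures, so that p-values measure the spread between these libraries and may be technical. Genes were filtered with filterByExpr, scaled by TMM and tested with edgeR 4.0.16 (glmQLFit at its defaults, glmQLFTest, R 4.3.3) over 19349 genes, with Benjamini-Hochberg adjustment and a threshold of 0.05. The biological coefficient of variation was 0.147. CPM are TMM-normalized, and levels were divided by the exon length in the table. Alternatives were DESeq2 1.42.0, other scalings, filters and fit settings, halved counts, a replicate block and leaving out each library. The procedure was tested on simulated data. Overlap of exons was read from the table and from gencode 44 on GRCh37, and promoters from RefSeq (GRCh38.p14).

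The 39 genes and the pathway lists were chosen with earlier results of these data known. By rule, values in every library are given for members with an unadjusted p under 0.05, the 2 highest members per kilobase in each role group and the 5 transcription factors. Members outside the rule that have such values, DDX60, HERC5, HERC6, OASL, OAS2, BST2 and IFITM1, were chosen after their values were seen. Of the pathway, the receptors, JAK1, TYK2 and the highest gene of each list were to be named, and other pathway genes named were chosen after their values were seen. Some genes of the lists are not reported here by name. Columns of the authors' own comparisons were not used, and 0 columns of other samples were present.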

Additional observations from a re-analysis of the deposited data

How the results depend on the processing

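Over all genes, 41 were called higher and 14 lower. Counts were 58 and 35 with library size as the only scaling (62.4% higher against 74.5%), 324 and 113 with every gene of at least 1 count, 137 and 50 with a mean count over 50, 244 and 77 in DESeq2, 485 and 167 with the replicate block, 87 and 24 with glmQLFit at legacy = FALSE, 113 and 35 with halved counts, and 77 to 923 and 26 to 272 with 1 library left out. The highest of these came without siLOC730101 replicate 1. Members called higher and lower, 0 and 0 in the report, were 1 and 1 with at least 1 count, 1 and 0 with a mean count over 50, 1 and 0 in DESeq2, 2 and 1 with the replicate block, 1 and 1 with halved counts, and 0 to 2 and 0 to 1 with 1 library left out. These calls were ISG15, IRF7 and MX1 or MX2, the last of which passed the filter only through siControl. Of all genes tested, 1.37% were called with at least 1 count, 1.32% with a mean count over 50 and 1.66% in DESeq2. The shares were 3.37% with the replicate block and 0.873% with halved counts. Pathway genes called higher were 1 with at least 1 count (HLA-B) and 3 with the replicate block (HLA-B, HLA-C and B2M), and 1 to 3 higher and 0 to 1 lower with 1 library left out. The median of the members was -0.0148 to 0.106 with 1 library left out. The cause of these differences was not tested.

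The labels tie same-numbered libraries by nothing but the number. Their deviations from the group means had a correlation of -0.000896, which does not show whether they were prepared together. Fits with 1 library left out assume that the lone library varies like the other group. DESeq2 gave no adjusted p for MX2 and other members, or for IFNAR2, IL10RB and PSMB10. These values are counted as not passing, among the 618 that follow. Of 665 values of named genes under an alternative, 618 kept direction and side of the threshold, 18 passed it and 29 turned sign, all of the last with log2 fold changes within their standard error or with 1 library left out. Those that turned with a scaling, filter or halved counts were HERC5 (-0.00243, -0.00956 and -0.00147), DTX3L (-0.00459 and -0.0109), IRF2BP2 (-0.0206, -0.027 and -0.00199) and IL10RB (0.000127). With 1 library left out, log2 fold changes spanned -0.231 to 0.629 for IFIT3, -0.572 to 0.207 for IFITM3, -0.067 to 0.342 for USP18, -0.482 to 0.807 for HERC5, -0.532 to 0.0392 for JAK1, -0.63 to 0.0825 for IFNAR2, -0.515 to 0.356 for IL10RB, -0.386 to 0.0165 for IFIT5, -0.14 to 0.497 for SP100, -0.0671 to 0.372 for TLR3, -0.556 to 0.0493 for IFI27, -0.0407 to 0.347 for ISG20, -0.452 to 1.16 for IFI44, -0.0442 to 0.178 for IRF3, -0.0179 to 0.291 for IFNGR2 and -0.0085 to 0.211 for LAP3. Depth limits the weakest members, 6 of which had under 20 counts over the 4 libraries.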

Other observations

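HLA-B and HLA-C, class I genes that present peptides to T cells, differed between libraries of 1 group. HLA-B had counts of 1 and 502 in siControl against 642 and 529 in siLOC730101. HLA-C had counts of 1040 and 2 in siControl against 338 and 734 in siLOC730101. In siControl each gene was thus near 0 in a different library. The log2 fold changes were 1.48 and 0.50 with standard errors of 0.82 and 0.87 (adjusted p = 0.553 and 0.903, edgeR). The fitted log2 fold change was 9.44 for HLA-B without siControl replicate 2 (adjusted p = 3.34e-72, edgeR) and 8.24 for HLA-C without siControl replicate 1 (adjusted p = 2.28e-61, edgeR), each against the single siControl library near 0. Both belong to a family of near-identical genes, so their counts are uncertain.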
